A study of Mus musculus with 2 samples.

Results

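The receptors P2rx7, P2rx4, P2ry1 and P2ry10 were followed from cell to cell in GL261, a glioma line of C57BL/6 mice whose label reads astrocytoma. The members were taken by gene symbol and are 4 of the 16 P2X and P2Y receptor genes in the files, which hold 32285 genes in all. The data are 1 single-cell library of adherent cells and 1 of neurospheres, the floating spheres that formed over 12 days with EGF at 20 ng/ml, FGF at 20 ng/ml and B-27 supplement. All cells come from this 1 line. Adherent cells were detached with trypsin, while spheres were spun down and broken up by pipetting, so collection differed along with culture. The questions were in which cells each receptor was detected, whether a pair of receptors was detected in the same cells more often than their shares alone would give, and which other genes were at different levels in the cells where a receptor was found. With 1 library per condition no test was possible: no p-value is given, and every interval is a 95% interval for counting error only.

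P2X receptors are ion channels of 3 subunits that open when ATP binds from outside the cell, and let calcium and sodium in. P2rx7 needs much more ATP than P2rx4 and is known for pore formation and inflammasome activation in immune cells, while P2rx4 responds to low ATP and is also held in lysosomes. P2ry1 is a receptor for ADP that couples to Gq and releases calcium from internal stores. P2ry10, placed in the P2Y family by sequence, responds to lysophosphatidylserine and couples to G12/13.

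P2rx7 (ENSMUSG00000029468) and P2rx4 (ENSMUSG00000029470) are neighbours on the plus strand of chromosome 5 in GRCm38, at chr5:122643911-122691432 and chr5:122707544-122729738. Their ends lie 16111 bases apart. P2ry1 (ENSMUSG00000027765) lies at chr3:61002795-61008982 and P2ry10 (ENSMUSG00000050921) at chrX:107088492-107104974, both on the plus strand. The sequences just upstream of the start of each gene are shown because the receptors were set against each other as genes that may or may not be transcribed in the same cells. They are the plus strand of RefSeq's GRCm38.p6, 5′ to 3′, at chr5:122643677-122643910 for P2rx7, chr5:122707294-122707543 for P2rx4, chr3:61002535-61002784 for P2ry1 and chrX:107088242-107088491 for P2ry10. Capitals mark the GC box, GGGCGG on either strand.
P2rx7: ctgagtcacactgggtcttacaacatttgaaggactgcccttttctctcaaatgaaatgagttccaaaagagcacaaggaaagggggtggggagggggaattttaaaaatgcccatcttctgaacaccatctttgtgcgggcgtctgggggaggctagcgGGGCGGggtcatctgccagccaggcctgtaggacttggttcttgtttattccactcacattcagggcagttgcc
P2rx4: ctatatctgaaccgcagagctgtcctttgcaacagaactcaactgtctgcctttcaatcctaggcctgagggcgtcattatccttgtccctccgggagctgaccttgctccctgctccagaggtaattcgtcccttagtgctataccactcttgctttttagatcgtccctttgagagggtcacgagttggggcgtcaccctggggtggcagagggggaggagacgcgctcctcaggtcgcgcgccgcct
P2ry1: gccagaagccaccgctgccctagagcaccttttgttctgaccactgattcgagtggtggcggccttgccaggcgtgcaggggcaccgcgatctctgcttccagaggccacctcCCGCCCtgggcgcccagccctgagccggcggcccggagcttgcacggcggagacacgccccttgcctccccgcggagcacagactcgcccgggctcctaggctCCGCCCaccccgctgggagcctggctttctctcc
P2ry10: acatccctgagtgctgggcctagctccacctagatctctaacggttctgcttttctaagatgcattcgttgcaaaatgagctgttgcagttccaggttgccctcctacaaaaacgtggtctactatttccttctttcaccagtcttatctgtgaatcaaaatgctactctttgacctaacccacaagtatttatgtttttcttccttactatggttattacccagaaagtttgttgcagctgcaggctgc

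The P2ry1 sequence held 2 GC boxes, 20 CpG dinucleotides and 70.8% G and C. The P2rx7 sequence held 1 GC box, 4 CpG dinucleotides and 51.7% G and C. P2rx4 had 13 CpG dinucleotides and P2ry10 had 3, at 57.2% and 43.2% G and C, and neither held a GC box. The upstream sequences of the neighbours P2rx7 and P2rx4 thus differed in CpG content, on either side of the median of 6 over 32817 promoters. A GC box was found in 32.7% of those promoters. The letters TATAAA, searched on both strands, were found in 12.4% of all promoters and in none of the 4 members' sequences. These are descriptions of letters in short windows and say nothing about which factors bind there.

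The kept cells were 5051 adherent cells with a median of 8260 UMIs (unique molecular identifiers, each standing for 1 captured RNA molecule) and 4276 neurosphere cells with a median of 13198.5 UMIs. To compare cells at one depth, the UMIs of each cell were thinned at random to 5000, which left 4464 adherent and 4196 neurosphere cells. Levels over all kept cells are given as CPM, the UMIs of a gene in each 1000000 UMIs of the library without mitochondrial and ribosomal protein genes. Of 12 astrocyte markers, 3 were at 0 in each library, Aqp4 and Gjb6 among them, and Gfap had 0.648 CPM in the adherent library and 0.416 CPM in the other. Their summed level was 624 and 472 CPM, most of it from Slc1a3 (370 and 80.5 CPM) and S100b (161 and 255 CPM). Of 12 immune cell markers, 3 were at 0 in adherent and 4 in neurosphere cells, with Tyrobp at 0 in both and a summed level of 19.1 and 7.11 CPM. The libraries shared 9 cell barcodes among the kept cells.

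P2rx4 was the most abundant of the 4 receptors in adherent cells and P2ry10 in neurosphere cells. In adherent cells the order was P2rx4 (28.9 CPM, 27.3 to 30.5), P2ry10 (16.7, 15.6 to 17.9), P2rx7 (12.5, 11.5 to 13.6) and P2ry1 (1.06, 0.783 to 1.40). In neurosphere cells it was P2ry10 (44.7, 43.1 to 46.4), P2rx4 (31.5, 30.2 to 32.9), P2ry1 (20.9, 19.8 to 22.0) and P2rx7 (7.98, 7.30 to 8.69). No neighbours in either order had intervals that overlapped, so each order is beyond counting error, although spread between cultures was not measured. The other 12 P2 receptor genes were at most at 2.71 CPM, the level of P2ry10b in neurosphere cells. P2ry10b lies 43952 bases from P2ry10 and shares 172 of the 2979 stretches of 31 bases in P2ry10's transcripts, so a part of the P2ry10 count is uncertain. P2rx7 and P2rx4 shared none. Of the remaining genes, P2rx3 was at 1.25 and 1.43 CPM and P2ry2 at 1.30 and 0.908 CPM in adherent and neurosphere cells.

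Each receptor was found in a minority of cells. At 5000 UMIs per cell, P2rx7 was detected in 5.67% of adherent cells (5.01% to 6.39%) and 3.88% of neurosphere cells (3.32% to 4.51%). P2rx4 was detected in 13.7% and 16.1%, P2ry1 in 0.515% and 9.94%, and P2ry10 in 8.24% and 21.4%. No cell type that should lack these genes was in the libraries, so how often free RNA gives a UMI in a cell without the transcript could not be measured. At least 1 of the 4 receptors was found in 25.5% of adherent cells (24.3% to 26.8%) and 42.1% of neurosphere cells (40.6% to 43.6%). Cells with UMIs of exactly 2 receptors made up 2.49% of the adherent and 7.51% of the neurosphere cells. UMIs of 3 receptors were found in 3 adherent and 36 neurosphere cells, and no thinned cell had all 4. At full depth, 23 of the 4276 neurosphere cells and 0 of the 5051 adherent cells had UMIs of all 4 receptors, where 0 of 5051 allows a share of up to 0.0594%, that of 3 cells.

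In most cells with a receptor, 1 UMI of it was found. The number of thinned cells with at least 2 UMIs was set beside the number that a Poisson distribution of the same mean gives. P2ry1 in neurosphere cells had 40 such cells against 23.4, a ratio of 1.71 (1.22 to 2.32). P2rx4 in neurosphere cells had 79 against 62.3, a ratio of 1.27 (1.00 to 1.58). P2ry1 and P2rx4 were therefore more unevenly spread over neurosphere cells than counting alone gives, P2rx4 with an interval that reached down to 1.00. Their intervals overlapped, and the variance over the mean was 1.09 for both. P2ry10 had 111 against 106.2 in neurosphere cells, a ratio of 1.05 (0.860 to 1.26), and P2rx7 had 6 against 3.31, where the interval of 0.665 to 3.94 leaves a wide range. In adherent cells the ratios were 1.59 for P2rx7, 1.12 for P2rx4 and 1.26 for P2ry10, all with intervals that included 1.

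Co-detection of the 6 receptor pairs at 5000 UMIs per cell was close to what the separate shares give. The expected number of cells with both is the product of both shares. P2rx7 and P2rx4, the neighbours on chromosome 5, were found together in 42 adherent cells where 34.7 were expected, a ratio of 1.21 (0.871 to 1.63). They were found together in 32 neurosphere cells where 26.3 were expected, a ratio of 1.22 (0.832 to 1.72). P2rx4 was thus in 16.6% of the adherent cells with P2rx7 and 13.6% of those without, and in 19.6% and 16.0% of the neurosphere cells. P2rx4 and P2ry1 were together in 80 neurosphere cells against 67.3 expected, a ratio of 1.19 (0.943 to 1.48). P2ry1 and P2ry10 were together in 99 neurosphere cells against 89.0, a ratio of 1.11 (0.904 to 1.35). P2rx4 and P2ry10 had ratios of 1.01 in adherent and 1.08 in neurosphere cells, P2rx7 and P2ry10 had 1.05 and 1.12, and P2rx7 and P2ry1 had 1.05 in neurosphere cells. Every one of these intervals included 1. The 3 pairs with P2ry1 in adherent cells rested on 1 or 2 cells each and show nothing either way.

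**Figure D1:**
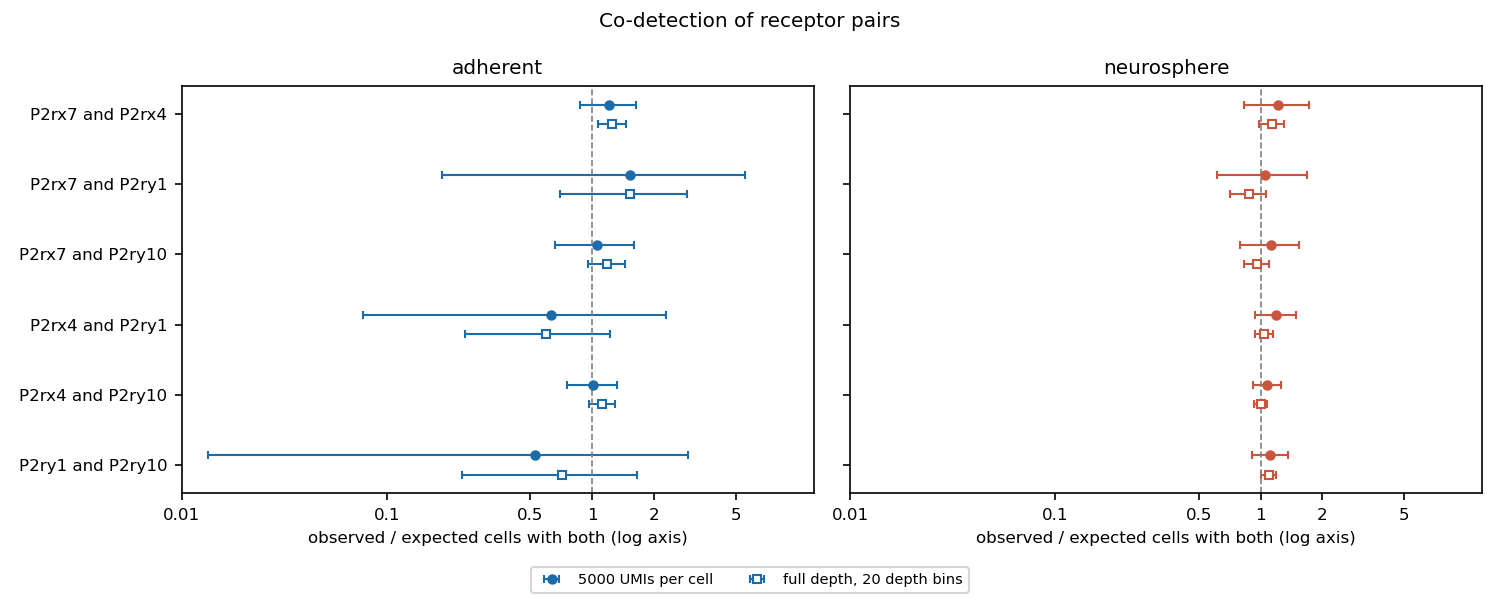
Observed over expected number of cells with UMIs of both receptors (horizontal log axis) for 6 pairs in adherent (left) and neurosphere cells (right); filled points are cells thinned to 5000 UMIs, open squares all UMIs with cells compared within 20 depth bins, and bars are 95% counting intervals. Filled points have bars that cross 1 for every pair, and among the open squares P2rx7 with P2rx4 in adherent cells (1.25) and P2ry1 with P2ry10 in neurosphere cells (1.10) lie above it.

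More cells could be counted at full depth, with the expectation taken within 20 bins of cells of like depth. P2rx7 and P2rx4 were then together in 157 adherent cells where 125.3 were expected, a ratio of 1.25 (1.06 to 1.46). The same pair had 192 cells against 169.3 in neurospheres, a ratio of 1.13 (0.979 to 1.31). P2ry1 and P2ry10 had 522 against 476.1 in neurospheres, a ratio of 1.10 (1.00 to 1.19). The first and the last were the pairs whose intervals lay above 1 at this depth, each by a small margin. P2rx4 and P2ry10 had 716 cells against 714.8 in neurospheres, a ratio of 1.00 (0.930 to 1.08), and P2rx7 and P2ry1 had a ratio of 0.876 (0.711 to 1.07). Without depth bins, a calculation added after the data were seen, the adherent ratio of P2rx7 and P2rx4 was 1.36 and the neurosphere ratio of P2ry1 and P2ry10 was 1.17. The intervals with and without bins overlapped, and the part of depth in the difference was not tested. When the expectation was taken within clusters at 5000 UMIs, the 6 neurosphere ratios were between 1.04 and 1.14.

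Clusters of cells were made with the 4 receptors left out, so that the receptors played no part in them, and are given by number with their leading genes. The 10 neurosphere clusters differed in all 4 receptors. Cluster 1, led by Comp, Pdzd2, Mucl2 and Rgs16, and cluster 6, led by Enpp2, Mbp, Gm4876 and Gpr17, were the clusters with high levels. P2rx4 was at 53.7 CPM in cluster 1 (47.5 to 60.5) and 53.1 CPM in cluster 6 (45.9 to 61.1), with a median of 29.3 CPM over the 10 clusters. P2ry10 was at 67.1 CPM in cluster 1 and 58.3 CPM in cluster 6, with a median of 44.7 CPM. P2ry1 was at 33.9 CPM in cluster 1 (29.0 to 39.4), and at 24.8 CPM in cluster 6 (20.0 to 30.4), near its median of 20.1 CPM. P2rx7 was at 16.3 CPM in cluster 6 (12.5 to 21.0) and 11.4 CPM in cluster 1 (8.62 to 14.7). P2ry1 was thus highest in cluster 1 and P2rx7 in cluster 6, but for each of these the intervals of both clusters overlapped. Other clusters also came near, as P2rx4 was at 44.8 CPM in cluster 4 (39.5 to 50.6) and P2ry10 at 52.5 CPM in cluster 8 (46.4 to 59.2), with intervals that overlapped those of cluster 6. These are also clusters of shallow cells, with medians of 7623 and 8270.5 UMIs, and 4.85% and 4.79% mitochondrial UMIs as a share of all UMIs of a cell. The part of depth in the levels was not tested. At 5000 UMIs clusters 1 and 6 held the highest shares of P2rx4 and P2ry10, while P2rx7 in cluster 1 (4.70%) lay below cluster 0 (4.96%) and P2ry1 in cluster 6 (10.0%) below cluster 8 (12.2%).

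**Figure D2:**
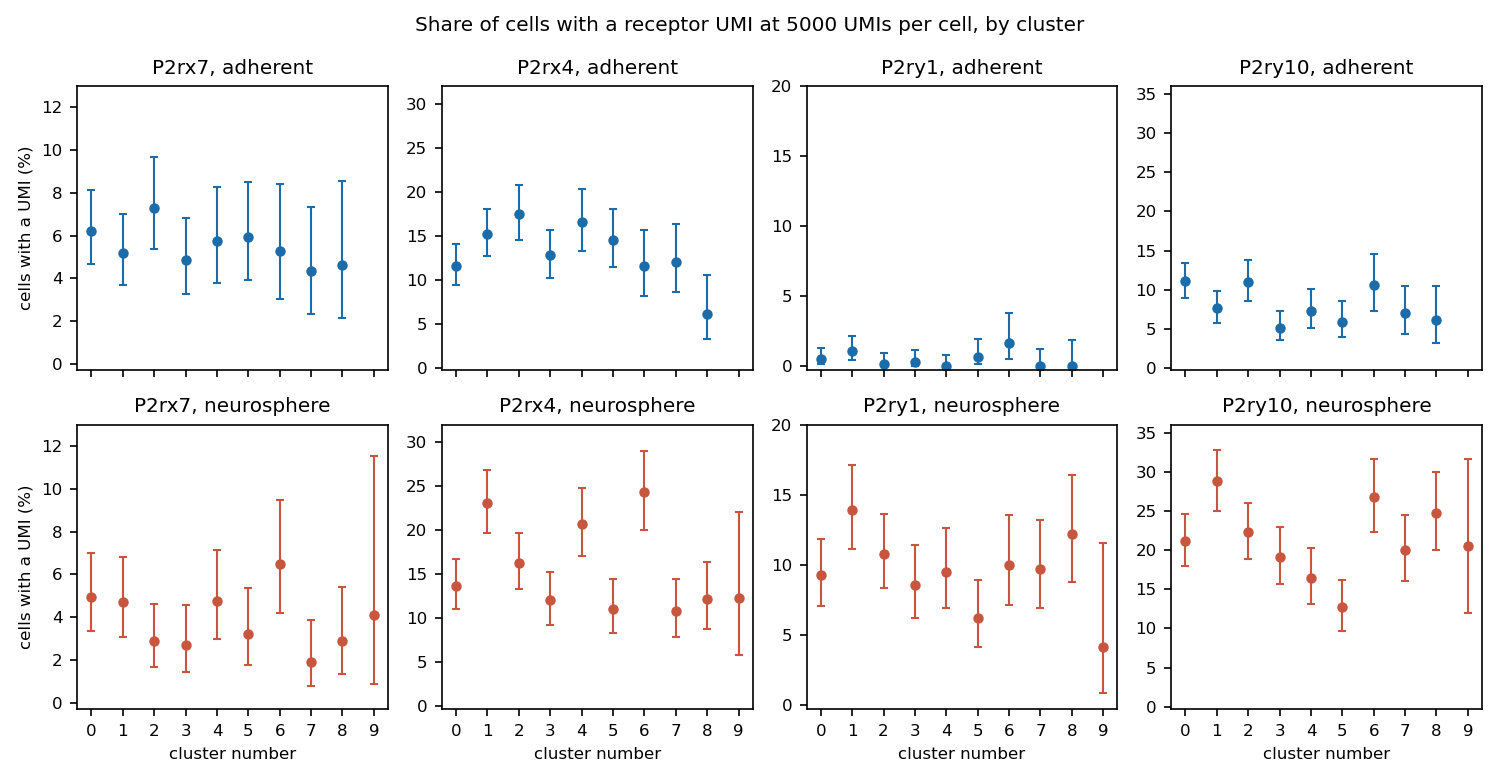
Share of cells with a UMI of each receptor (vertical axis, percent) at 5000 UMIs per cell in each cluster (horizontal axis, cluster number), for adherent (top) and neurosphere cells (bottom), with 95% binomial intervals for counting error. Neurosphere clusters 1 and 6 have high shares of P2rx4 (23.1% and 24.3%) and P2ry10 (28.8% and 26.8%), and adherent cluster 9 has no cell of 5000 UMIs.

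At 5000 UMIs, P2rx4 was found in 24.3% of the cells of neurosphere cluster 6 (20.0% to 29.0%) and 10.8% of those of cluster 7 (7.84% to 14.4%), a cluster led by histone genes, Neil3 and Rrm2. P2rx7 was found in 6.49% of cluster 6 (4.20% to 9.50%) and 1.89% of cluster 7 (0.764% to 3.86%). P2ry1 was found in 13.9% of cluster 1 (11.1% to 17.1%) and 6.24% of cluster 5 (4.15% to 8.94%), which Fbn2, Phlda2 and Lpcat2 led. P2ry10 was also high in cluster 1, at 28.8% (25.01% to 32.7%), and low in cluster 5, at 12.7% (9.71% to 16.2%). In cluster 4, led by Chit1, Spp1, Mt3 and interferon genes, P2rx4 was found in 20.8% of cells (17.1% to 24.8%), against 15.0% to 17.3% over all cells, and P2ry10 in 16.5% (13.1% to 20.3%), against 20.1% to 22.6%. These intervals overlapped, and so did those of P2ry10 by CPM, while the 44.8 CPM of P2rx4 in this cluster had an interval above that over all cells.

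The adherent clusters differed as well. Without cluster 9, an exclusion made after the data were seen, the highest cluster was 2.17 times the lowest in P2rx7 CPM, 2.89 times in P2rx4 and 2.29 times in P2ry10. Among the neurosphere clusters these values were 4.42, 2.59 and 2.63. Cluster 2, led by 9130015A21Rik and Col2a1, was then the highest for all 3 of these receptors by CPM. It held P2rx7 at 17.7 CPM (14.3 to 21.6), P2rx4 at 42.4 CPM (37.0 to 48.2) and P2ry10 at 24.2 CPM (20.2 to 28.7), the last no higher than in cluster 6 within counting error (23.9 CPM, 18.8 to 30.1). The intervals of P2rx7 and P2rx4 overlapped those of cluster 4 (10.6 to 18.3 and 26.8 to 38.4), and by thinned shares P2ry10 was highest in cluster 0, at 11.1%. P2rx4 was lowest in cluster 8, which Ly6a and Cd81 led, at 14.7 CPM (9.66 to 21.3) and in 6.15% of thinned cells (3.22% to 10.5%). P2ry10 was at 10.5 CPM in cluster 3 (8.48 to 12.9), which Areg and Ube2c led. P2ry1 had 49 UMIs over all adherent cells, and its highest level was 2.62 CPM in cluster 6 (1.13 to 5.17), which Tex14 led. Cluster 9 held 49 cells with a median of 2647 UMIs and 12.3% mitochondrial UMIs, led by Lars2, Pcdh9 and Dmd. Its receptor levels were 132 CPM for P2rx4 from 18 UMIs (78.3 to 209), 66.0 CPM for P2ry10 from 9 UMIs and 58.7 CPM for P2rx7 from 8 UMIs. With it, the highest cluster was 7.20, 9.01 and 6.27 times the lowest for P2rx7, P2rx4 and P2ry10.

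Across the 10 neurosphere clusters, log2(CPM + 1) of P2rx7 followed that of P2rx4 (Pearson r = 0.817) and P2ry1 followed P2ry10 (r = 0.723). P2rx4 and P2ry10 had r = 0.691, and P2rx7 and P2ry1 had r = 0.114. In the 9 adherent clusters without cluster 9, P2rx7 and P2rx4 had r = 0.922, and P2rx7 and P2ry10 had r = 0.589. These are descriptions over clusters of 1 library, which share their cells' depth and composition. Of 7596 neurosphere genes with at least 1000 UMIs, those whose levels over clusters were the most like P2ry1 were Tle2 (r = 0.991), Rasl12 and Tspan13. For P2ry10 they were Vgll2 (r = 0.977), Matn1 and Prpsap2, and for P2rx4 they were Tfcp2, Atraid and Fkbp9. For P2rx7, among 7597 genes, they were Rab31 (r = 0.986), Zmynd8 and Cald1. In adherent cells, with all 10 clusters and 5694 genes (5693 for P2rx4), they were Skap2 (r = 0.992), Srpr and Usp9x for P2rx7 and Srpr (r = 0.986), Greb1 and Spg7 for P2rx4. They were AI662270 (r = 0.869), Gkap1 and Keap1 for P2ry1, whose 49 UMIs make its pattern mostly counting error, and Mdga2 (r = 0.989), Recql and Ncam1 for P2ry10. Among the adherent clusters the value of cluster 9 stands far from the rest, and r of P2rx7 and P2ry10 was 0.904 with it.

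Neurosphere cells with few cell cycle transcripts had P2rx4 more often. The cells were ranked by their summed UMIs of the S phase and G2/M lists at 5000 UMIs, a split that was made after the data were seen and that cuts a range, not types. P2rx4 was found in 22.6% of the 1158 neurosphere cells with at most 6 such UMIs (20.2% to 25.1%) and in 11.8% of the 1076 cells with at least 41 (9.94% to 13.9%). P2rx7 was found in 5.27% (4.05% to 6.72%) and 2.97% (2.04% to 4.17%), P2ry1 in 11.3% (9.55% to 13.3%) and 8.55% (6.95% to 10.4%), and P2ry10 in 25.4% (22.9% to 28.0%) and 19.4% (17.1% to 21.9%). The low side was the higher for all 4 receptors, and for P2rx4 by the widest margin. On the limits themselves lay 131 and 64 cells. The cells on the low side were shallower, with a median of 8832 UMIs against 17965.5, and had 4.76% against 3.50% mitochondrial UMIs.

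The same was therefore counted among cells of like depth, in 4 equal bins of the cells' full UMI count. In the neurosphere cells with 5001 to 9252 UMIs, P2rx4 was found in 23.7% of those on the low side (20.5% to 27.2%) and 17.4% of those on the high side (9.32% to 28.4%). In those with 9254 to 13372 UMIs it was found in 19.3% (15.2% to 24.0%) and 13.9% (9.46% to 19.5%). In those with 13380 to 19163 UMIs it was found in 21.6% (15.1% to 29.4%) and 11.4% (8.23% to 15.4%), and in those with 19168 or more in 32.7% of 52 cells (20.3% to 47.1%) and 10.3% of 474 cells (7.75% to 13.4%). P2rx4 was thus higher on the low side in each of the 4 depth bins, and in the deepest bin the intervals were apart. P2rx7 and P2ry10 were higher on the low side in each bin too, with intervals that overlapped. P2ry1 was not, as it was found in 11.4% of cells on the low side and 15.9% on the high side in the shallowest bin. In adherent cells P2rx4 did not differ beyond counting error, as it was found in 15.2% of the 1191 cells with at most 15 cell cycle UMIs (13.2% to 17.4%) and in 14.9% of the 1170 cells with at least 38 (12.9% to 17.04%). P2rx7 was found in 5.96% and 5.30%, and P2ry10 in 9.07% and 8.80% of these adherent cells. The limits of the split differ between the libraries, and the difference between them was not tested.

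Cells with many transcripts of the cartilage matrix list, which holds Col2a1, the type IX and XI collagens, Acan and Matn1, had some of the receptors more often. In neurospheres, P2ry10 was found in 16.0% of the cells with at most 14 such UMIs (13.9% to 18.4%) and 27.1% of those with at least 36 (24.5% to 29.9%). P2rx4 was found in 12.7% (10.8% to 14.9%) and 20.7% (18.3% to 23.2%), P2ry1 in 7.59% (6.06% to 9.36%) and 12.3% (10.4% to 14.4%), and P2rx7 in 3.80% (2.72% to 5.13%) and 6.40% (5.02% to 8.02%), of which the intervals of P2rx7 overlapped. In adherent cells, with limits of 2 and 6 UMIs, P2rx4 was found in 11.9% (10.3% to 13.6%) and 17.96% (16.0% to 20.1%), and P2rx7 in 4.87% (3.84% to 6.07%) and 7.31% (6.00% to 8.82%). P2ry10, at 7.69% and 9.05%, and P2ry1, at 0.526% and 0.579%, had intervals that overlapped, as did P2rx7. The neurosphere cells on the high side had a median of 9338 UMIs against 17124.5, and the adherent ones 8177 against 9318, and the part of this in the shares was not tested. For the interferon list in neurospheres, P2rx7 was found in 2.37% of the cells with at most 2 UMIs (1.55% to 3.45%) and 5.11% of those with at least 9 (3.90% to 6.56%). P2rx4 was found in 13.6% and 18.7% of these cells and P2ry1 in 8.55% and 10.5%. P2ry10 went the other way, at 22.7% (20.3% to 25.3%) and 18.8% (16.5% to 21.2%), with intervals that overlapped. Cells on the low side had a median of 14229 UMIs and those on the high side 11672. On the low limit itself lay 473 of 1099 cells, and the part of depth was not tested. In adherent cells, with limits of 27 and 44 UMIs, P2rx7 was found in 6.88% and 5.55% and P2rx4 in 12.7% and 11.6%. P2ry10 was found there in 8.66% and 8.49% and P2ry1 in 0.340% and 0.607%, and for each receptor the intervals overlapped. For the oligodendrocyte lineage list, P2rx4 in adherent cells was found in 11.4% of cells with at most 2 UMIs (9.74% to 13.3%) and 16.2% of those with at least 6 (14.2% to 18.4%), and P2ry10 in neurospheres in 19.2% (16.95% to 21.5%) and 24.7% (22.2% to 27.3%) of those with at most 10 and at least 23. The other 6 pairs of values had intervals that overlapped. The median depth of the low and high sides was 9078 and 8156 UMIs in adherent and 16155.5 and 11007 UMIs in neurosphere cells.

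The cells with and without a UMI of a receptor were then compared gene by gene. For each receptor, the mean level of every other gene at 5000 UMIs per cell was divided between the cells with and those without it, for genes with at least 50 UMIs expected in the cells with the receptor. A gene was counted as different when this ratio was at least 1.5 or at most 1/1.5. The median ratio over all genes was between 0.992 and 1.01 in the 7 comparisons, as a fixed number of UMIs per cell would give. P2ry1 was found in 23 thinned adherent cells, too few, and was compared in neurospheres alone. Because cells without a UMI of a receptor can still hold its RNA, and because a highest or lowest ratio among so many genes is partly a product of the thinning, each comparison was repeated with another random thinning of the same cells and with both sides given the same cluster shares. Both thinnings draw from the same UMIs of each cell and share some of them. A gene past the ratio under both is thus not replicated in other cells. The comparisons within a library share most of their cells without a receptor, so their values are given side by side.

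The neurosphere cells with P2rx7 had the highest share of different genes and, at 163, were also the fewest, and the part of their number in this share was not tested. Of 3365 genes, 30 were higher (0.892%) and 16 lower (0.475%). Slc1a3, a glutamate transporter of astrocytes and glial progenitors, was at 199 CPM in the 163 cells with P2rx7 and 88.6 CPM in the 4033 without, a ratio of 2.24 (1.90 to 2.64). It was found in 43.6% and 26.5% of these cells. It stayed past the ratio under the other thinning, at 1.88, and with the same cluster shares, at 2.04. Lhfpl3 was at 312 and 152 CPM (ratio 2.05, 1.79 to 2.32) and Ppp2r2b, a brain regulatory subunit of a protein phosphatase, at 647 and 344 CPM (1.88, 1.72 to 2.05). Fabp7, a fatty acid binding protein of radial glia, had a ratio of 1.96 that became 1.02 under the other thinning, and 1 cell without P2rx7 held 94 of its 1498 UMIs. In all, 16 of the higher genes were past the ratio under both thinnings, among them Mbp, Anxa1, Cntn1, Opcml, Lsamp and Pde4b. With the same cluster shares as well, 5 of them remained, among them Slc1a3, Lhfpl3, Pantr1 and Mir99ahg.

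Of the 16 lower genes with P2rx7 in neurospheres, 1 was past the ratio under both thinnings. The lowest ratios were those of Trmt11, Timm50, Mgat2, Ndufs1 and Gm45589, between 0.603 and 0.617. Under the other thinning Trmt11 was at 1.08, Ndufs1 at 1.05 and Gm45589 at 1.06, so their direction turned. The 1 gene that held was Mrps7, a mitochondrial ribosomal protein, at 309 and 467 CPM (0.663, 0.583 to 0.751). The cells with P2rx7 had a median of 11652 UMIs before thinning against 13441 in the cells without, and 4.34% against 3.96% mitochondrial UMIs, and the part of this in the ratios was not tested. In adherent cells, 6 of 3863 genes were higher (0.155%) and 6 lower (0.155%) with P2rx7. The highest was Tex14, a gene of the intercellular bridges of germ cells, at 475 and 280 CPM (1.70, 1.56 to 1.84). A single cell with P2rx7 held 350 of the 6500 Tex14 UMIs, and without it the ratio was 0.711. Pdzrn3, at 152 and 96.1 CPM (1.58, 1.35 to 1.83), and Nfkbil1, at 61.7 and 40.1 CPM (1.54, 1.20 to 1.94), were also past the ratio under both thinnings, and so was Coprs on the low side (0.648, 0.496 to 0.831). Rhox5, and Ubap1, Praf2, Uba1 and Rab22a on the low side, were past it once.

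**Figure D3:**
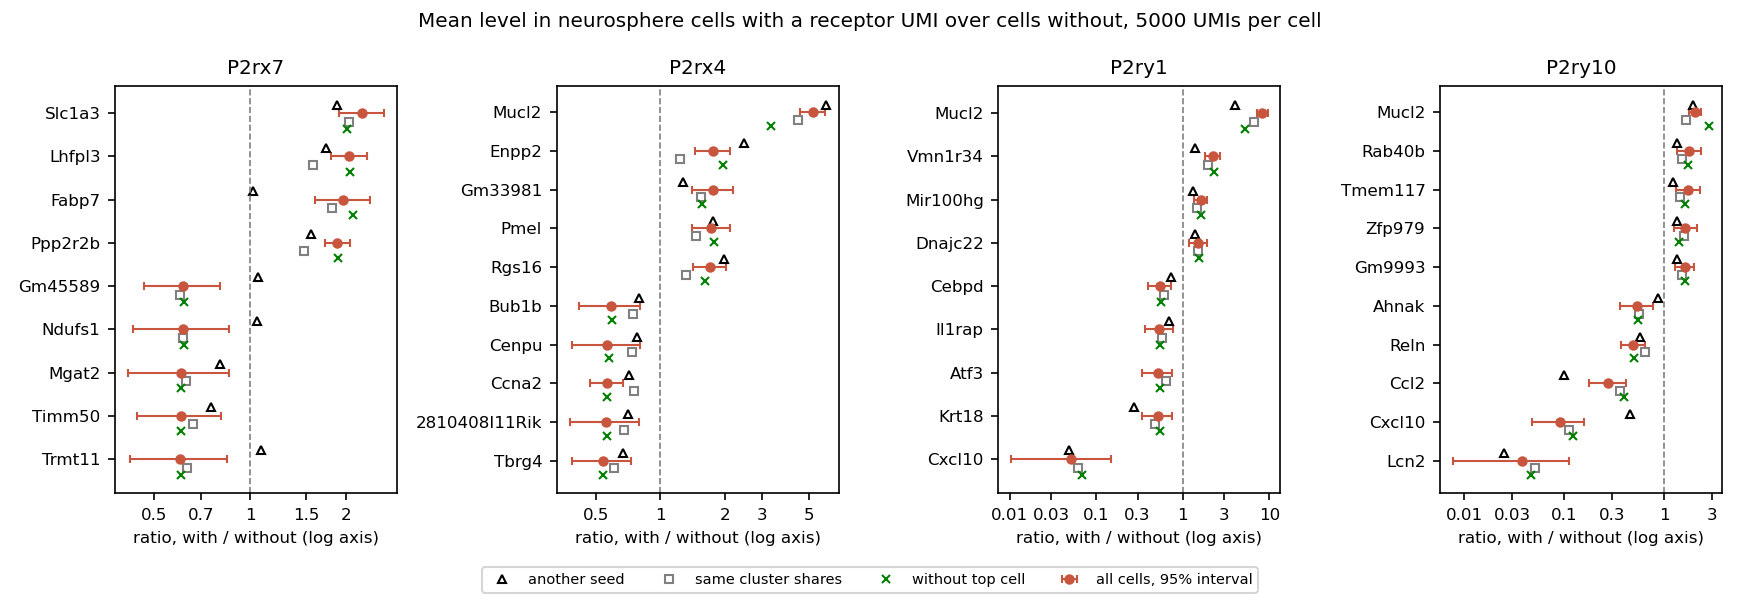
Mean level in neurosphere cells with a receptor UMI over that in cells without (horizontal log axis) for genes among the 5 highest and 5 lowest ratios per receptor; filled circles with bars are the ratio and its 95% counting interval, triangles another thinning, squares the same cluster shares and crosses the ratio without the cell with the highest UMI count of the gene. For P2rx7, Slc1a3 and Lhfpl3 stay above 1.5 in every setting drawn, while Fabp7 drops to 1.02 under another thinning.

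Neurosphere cells with P2rx4 had lower levels of cell cycle genes. Of 7824 genes, 30 were higher (0.383%) and 34 lower (0.435%) in the 677 cells with P2rx4 than in the 3519 without. On the low side were Ccna2, the cyclin of S phase and G2, at 42.8 and 76.5 CPM (0.560, 0.468 to 0.665), Bub1b, a checkpoint kinase of mitosis (0.587, 0.418 to 0.805), and Cenpu, a centromere protein (0.565, 0.384 to 0.806), with Tbrg4 and 2810408I11Rik. Under the other thinning these 5 were at 0.672 to 0.796, in the same direction but not past the limit. All 23 measured genes of the S phase list had ratios below 1, with a median of 0.803, and 5 were past the limit: Cdc6 (0.59), Cdc45 (0.61), Uhrf1 (0.63), Hells (0.66) and Mcm5 (0.67). All 26 measured genes of the G2/M list were below 1 as well, with a median of 0.771, and Bub1 (0.64) and Birc5 (0.64) were past the limit. None of these 7 genes was past it under both thinnings, so the lists' medians carry the difference and single genes do not. The medians were 0.799 and 0.761 under another thinning, and 0.959 and 0.990 with the same cluster shares, beside 1.01 over all genes. Some neurosphere clusters were themselves led by cell cycle genes, such as Cdc20 and Plk1. How much of the cell cycle level equal cluster shares even out was not measured. In adherent cells the medians of the same lists were 0.968 for S phase and 1.04 for G2/M.

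**Figure D4:**
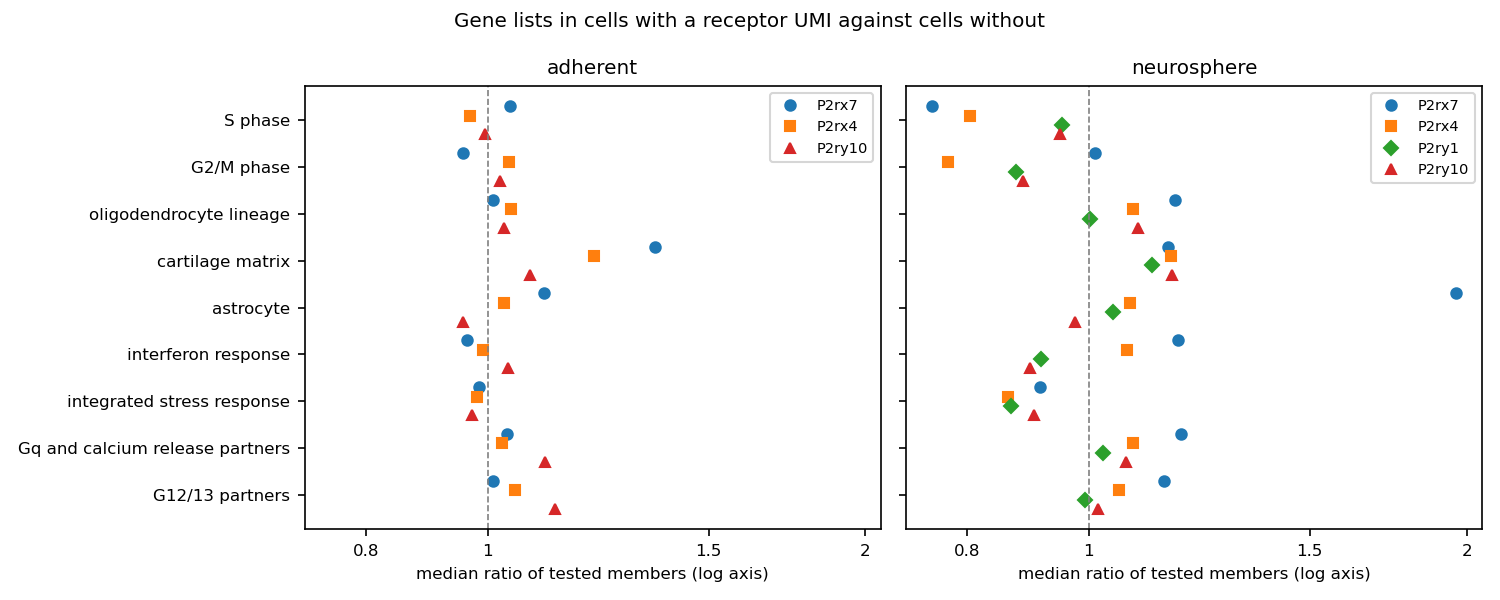
Median ratio of the tested genes of each list (horizontal log axis) in cells with a receptor UMI against cells without, in adherent (left) and neurosphere cells (right); each symbol is 1 receptor, and no error is drawn. The S phase and G2/M medians of P2rx4 lie at 0.803 and 0.771 in neurosphere cells and near 1 in adherent cells. The astrocyte median of P2rx7 at 1.96 rests on 3 genes and was 1.44 under another thinning.

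The genes that were higher with P2rx4 in neurospheres included leading genes of clusters 1 and 6, where P2rx4 was high. Enpp2 (autotaxin, which makes lysophosphatidic acid) was at 46.1 and 26.1 CPM (1.76, 1.46 to 2.12) and in 9.75% and 5.06% of cells. Rgs16, which shortens G protein signals, was at 48.2 and 28.2 CPM (1.70, 1.42 to 2.04), and Pmel, a pigment cell protein, at 38.7 and 22.3 CPM (1.73, 1.41 to 2.12). All 3 were past the ratio under the other thinning, at 2.46, 1.98 and 1.77, and none with the same cluster shares, at 1.24, 1.32 and 1.47. Gm33981 had a ratio of 1.76, and 1.28 under the other thinning. Of 10 genes past the ratio under both thinnings, Mucl2 was the 1 that stayed with the same cluster shares. Mucl2 was at 123 and 23.8 CPM, but its 836 UMIs lay in few cells, with 60.2% of them in 5 cells, and it was found in 1.62% and 1.28% of the cells with and without P2rx4. On the low side, Atf3, a stress transcription factor, was at 16.0 and 26.5 CPM (0.601, 0.445 to 0.798), and was past the limit under the other thinning (0.584) and with the same cluster shares (0.637). The cells with P2rx4 had a median of 11548 UMIs against 13614, and 4.31% against 3.90% mitochondrial UMIs.

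In adherent cells Col2a1, the collagen of cartilage, was the gene with the highest ratio for P2rx4. It was at 92.7 CPM in the 613 cells with P2rx4 and 43.7 CPM in the 3851 without, a ratio of 2.12 (1.85 to 2.43). The ratio was 2.04 under another thinning and 1.97 with the same cluster shares. Of 6620 genes, 2 were higher (0.0302%) and 15 lower (0.227%), and Col2a1 was the 1 higher gene that held under both thinnings, as the ratio of Kifc1 fell from 1.52 to 1.22. Mtmr12, Crebrf and Kank1 lay just under 1.5. On the low side were Il11, a cytokine of the IL-6 family, at 12.7 and 34.4 CPM (0.370, 0.260 to 0.511, and 0.623 under the other thinning), Ifi211 at 10.1 and 20.7 CPM (0.489, 0.328 to 0.706), and Gm49774 and Gm13889, at 0.496 and 0.600. These 4 were past the limit under both thinnings, with Spp1 (osteopontin; 33.6 and 54.1 CPM, ratio 0.622, 0.503 to 0.762) and Upf2, and Arhgap11a turned to 1.02. Depth was alike here, with medians of 8525 and 8766 UMIs. Col2a1 was also higher with P2rx4 in neurospheres, at a ratio of 1.35 (1.20 to 1.502), and with P2rx7 in both libraries, at 1.36 in adherent (1.08 to 1.70) and 1.57 in neurosphere cells (1.29 to 1.89).

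**Figure D5:**
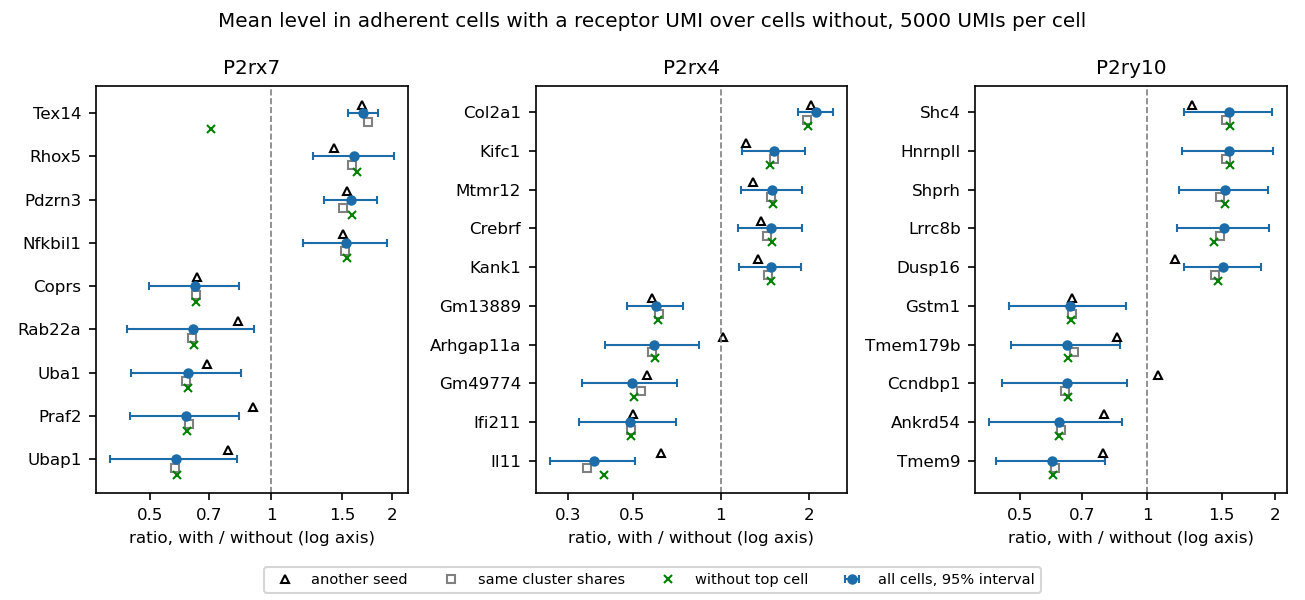
The same ratios in adherent cells for P2rx7, P2rx4 and P2ry10 (horizontal log axis), with the same symbols; no triangle is drawn where fewer than 50 UMIs were expected under another thinning. Col2a1 with P2rx4 stays near 2 in every setting, and Tex14 with P2rx7 falls from 1.70 to 0.711 without 1 cell.

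For P2ry1 in neurospheres, 10 of 6348 genes were higher (0.158%) and 19 lower (0.299%) in the 417 cells with it than in the 3779 without. Mucl2 had the highest ratio, 8.31, which was 5.21 without the cell with the highest count and 3.98 under the other thinning, and it was found in 1.92% and 1.27% of cells. Vmn1r34, Mir100hg and Dnajc22 followed with ratios of 2.23 to 1.52, and each was at 1.40 or less under the other thinning. Gm11884, at 297 and 196 CPM (1.52, 1.39 to 1.65), was past the ratio under both. On the low side, Krt18, a simple epithelial keratin, was at 13.9 and 27.2 CPM (0.511, 0.339 to 0.743, and 0.274 under the other thinning), and Cryab, a small heat shock protein, at 212 and 352 CPM (0.604, 0.548 to 0.665). Both were past the limit under both thinnings, with Hmga2 (0.652), Csn3 (0.626) and Cxcl10 (0.0503). Cxcl10, an interferon-induced chemokine, had 543 UMIs in 77 cells, 58.9% of them in 5 cells, and was found in 0.719% of the cells with P2ry1 and 1.96% of those without. Counting intervals do not cover such a spread over few cells. Krt18 and Cxcl10 were the lower genes that also stayed with the same cluster shares. Atf3, Il1rap and Cebpd had ratios of 0.515, 0.533 and 0.543. Under the other thinning Il1rap was at 0.698 and Cebpd at 0.737, not past the limit, and Atf3 had too few UMIs to be measured. The cells with P2ry1 had a median of 12372 UMIs before thinning and those without 13451.

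For P2ry10 in neurospheres, 14 of 8601 genes were higher (0.163%) and 39 lower (0.453%) in 896 cells with it than in 3300 without. Past the ratio under both thinnings were 13 of the 39 lower and 2 of the 14 higher genes. Of the 13, 7 also stayed with the same cluster shares: Atf3, Ccl2, Cxcl10, Hmox1, Lcn2, Nupr1 and Reln. Hmox1, which breaks down heme under oxidative stress, was at 44.9 and 75.6 CPM (0.594, 0.509 to 0.690). Atf3 was at 15.6 and 27.3 CPM (0.572, 0.438 to 0.737) and Nupr1, another stress gene, at 7.59 and 13.6 CPM (0.559, 0.378 to 0.804). Reln, a matrix glycoprotein that guides neurons, was at 13.4 and 27.6 CPM (0.486, 0.365 to 0.637) and in 4.69% and 9.0% of cells. Of the integrated stress response list, 2 of 12 measured genes were past the limit with a median of 0.904, and of the dissociation stress list 1 of 11 with a median of 0.990, and the other measured genes of both lists were not past it. Ccl2, Nupr1, Lcn2 and Hmox1 are among the leading genes of neurosphere cluster 9, a group of 75 cells. Lcn2 (0.0373), Cxcl10 (0.0903) and Ccl2 (0.273) had the lowest ratios but lay in 31, 77 and 45 cells, with 68.6%, 58.9% and 67.4% of their UMIs in 5 cells. Under the other thinning they were at 0.0250, 0.450 and 0.0995. Cryab was lower here too, at 237 and 365 CPM (0.649, 0.607 to 0.692). Ahnak had a ratio of 0.533, and 0.858 under the other thinning. The median depth was 12171.5 UMIs in the cells with P2ry10 and 13669.5 in those without.

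On the high side, Rab40b, Tmem117, Zfp979 and Gm9993 had ratios of 1.61 to 1.77 with P2ry10, and of 1.21 to 1.35 under the other thinning. Dennd2a, at 28.8 and 18.8 CPM (1.53, 1.23 to 1.88), and Mucl2 (2.03) were past the ratio under both. In adherent cells, 6 of 4990 genes were higher (0.12%) and 7 lower (0.14%) in the 368 cells with P2ry10. Lpar4, a receptor for lysophosphatidic acid related in sequence to the P2Y family, was at 46.2 and 30.6 CPM (1.51, 1.19 to 1.90), and was the 1 higher gene past the ratio under both thinnings. With the same cluster shares it was at 1.41. Gstm1 (0.657, 0.471 to 0.893) was the 1 such gene on the low side. Shc4, Hnrnpll, Shprh, Lrrc8b and Dusp16 had ratios of 1.51 to 1.56, and Tmem9, Ankrd54, Ccndbp1 and Tmem179b of 0.597 to 0.648, and none of those measured under the other thinning was past the ratio there, where Hnrnpll, Shprh and Lrrc8b had too few UMIs.

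No measured gene of the partner lists of P2rx7, P2ry1 and P2ry10 was past the ratio. Over all genes, 0.158% were higher and 0.299% lower for P2ry1 in neurospheres. The shares for P2rx7 were 0.892% and 0.475% in neurospheres and 0.155% and 0.155% in adherent cells. Those for P2ry10 were 0.163% and 0.453% in neurospheres and 0.12% and 0.14% in adherent cells. A count of 0 among so few genes is thus near the background and says nothing about the partners. Of the Gq and calcium release list, 10 of 18 genes could be measured for P2ry1 in neurospheres, none was past the ratio and the median was 1.03. Plcb1, the phospholipase that Gq activates, was at 183 and 134 CPM (1.36, 1.22 to 1.52), and Orai1, a calcium channel of the plasma membrane, at 84.9 and 67.2 CPM (1.26, 1.07 to 1.48), while 4 of the 10 lay below 1. Of the G12/13 partner list, all 10 genes were measured for P2ry10 in neurospheres, none was past the ratio and the median was 1.02. Arhgef12, a guanine nucleotide exchange factor that G12/13 activates, was at 85.0 and 73.5 CPM (1.16, 1.03 to 1.30), Gna13 had a ratio of 1.15 and Gna12 of 1.12, while 5 of the 10 lay below 1, down to 0.804. Of 12 partners of P2rx7 in pore formation and the inflammasome, Ano6 had ratios of 1.14 in adherent and 1.11 in neurosphere cells and Nek7 had 1.14 in adherent cells. The other 10 partners were too low to be compared. In the lysophosphatidylserine list, Abhd16a and Abhd12, which make and break down the lipid that P2ry10 responds to, had ratios of 1.03 and 0.984 with P2ry10 in neurospheres. Neighbours on chromosome 5 were not past the ratio either. For P2rx4, 0.383% of all genes were higher and 0.435% lower in neurospheres, and 0.0302% and 0.227% in adherent cells. A count of 0 among these few neighbours is near the background too. For P2rx4 in neurospheres 4 could be measured, with a median of 1.01 and Rnf34 the highest at 1.43 (1.12 to 1.82), and for P2rx7 there 3, with a median of 0.967. Anapc5, at 1.40 (1.11 to 1.75), was the 1 neighbour measured for P2rx7 in adherent cells.

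In the other lists few genes were past the ratio, beside the shares of all genes given for each comparison. The cartilage matrix list had medians of 1.12 to 1.16 for the 4 receptors in neurospheres, with 1 gene past the ratio for P2rx7 (Col2a1) and 1 for P2rx4 (Comp), and of 1.06 to 1.11 with the same cluster shares. Its adherent medians were 1.36 for P2rx7, with none of 5 genes past the ratio, and 1.22 for P2rx4. In the oligodendrocyte lineage list, Mbp was higher with P2rx7 in neurospheres (1.69), with Bcas1 at 1.49 and with Olig1 and Olig2 at 0.972 and 0.934. With P2rx4, 2 of 10 were higher (0.383% of all genes), Mbp (1.56) and Gpr17 (1.54), and neither was past the ratio under both thinnings. With the same cluster shares the Mbp ratio for P2rx7 was 1.21. The S phase median was 0.750 for P2rx7 in neurospheres, with all 11 measured genes below 1 and Mcm7 past the limit (0.641), while its G2/M median was 1.01. For P2ry1 and P2ry10 the G2/M medians were 0.875 and 0.885, with 25 of 25 and 26 of 27 genes below 1 and none past the limit, and they were 0.988 and 0.991 with the same cluster shares. In the interferon list, Cxcl10 and Rsad2 (0.656) were lower with P2ry10 in neurospheres, with a median of 0.898 over 14 genes. The integrated stress response list had medians of 0.863 to 0.914 for the 4 receptors in neurospheres, and of 0.922 to 0.969 with the same cluster shares. The astrocyte list held Slc1a3 and Fabp7 past the ratio with P2rx7, and Fabp7 was lower with P2ry10 (0.661). In the neural stem cell and Notch list, Fabp7 was also the only gene past the ratio in the 7 comparisons, and Hes5 had a ratio of 1.40 with P2ry10 in neurospheres. The dissociation stress list had Egr1 lower with P2rx4 in adherent cells (0.657, 0.515 to 0.830) and Atf3 lower with P2rx4, P2ry1 and P2ry10 in neurospheres. Of the genes named here, Mcm7 and Fabp7 with P2rx7, Egr1 with P2rx4, and Rsad2 and Fabp7 with P2ry10 were not past the limit under both thinnings. Atf3 with P2ry1 had too few UMIs to be measured under the other thinning. No gene of the lists of other P2X receptors, other P2Y receptors, adenosine receptors or immune cells had enough UMIs to be compared.

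No gene was past the ratio in the same direction with the same receptor in both libraries, which is near what 1 to 26 such genes per direction among 2893 to 6250 genes give by themselves. Over the genes measured in both, log2 ratios in the libraries had a Pearson r of 0.228 for P2rx7 (2893 genes), 0.219 for P2rx4 (6250 genes) and 0.0701 for P2ry10 (4887 genes). These are descriptions across genes, which are not independent replicates. Since the ratios of single genes also moved between thinnings of the same cells, these low values of r do not show that the libraries differ.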

How the data were processed

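Single-cell 3' RNA libraries of adherent and neurosphere GL261 cells were sequenced, and the authors made UMI counts per gene and cell with Cell Ranger 7.0.1 on mm10. These deposited counts were used as they are. Whether intronic reads were counted is not given in the sources used here. The 13 mitochondrial and 101 ribosomal protein genes were removed, which left 32171 genes. Barcodes with at least 1000 UMIs and at least 1250 genes in the adherent or 2250 genes in the neurosphere library, counted on the genes left, were kept by the limits of the study's methods, which left 5051 of 5764 and 4276 of 4951 barcodes with 46290996 and 64943938 UMIs on the genes left, slightly fewer cells than the study kept. No doublets were removed, and leaving out the cells above the 95th percentile of UMIs was one alternative.

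Each cell was thinned without replacement to 5000 UMIs (seed 11, with seed 12 as another thinning), so that 587 adherent cells and 80 neurosphere cells of lower depth were not used there. Intervals are exact Poisson or Clopper-Pearson intervals at 95%, and cover counting error only. UMIs of 1 library are not replicates of a culture, so no test was made. Clusters were made in Seurat 5.3.0 (R 4.3.3) without the 4 receptors, from 2000 variable genes and 17 adherent or 18 neurosphere principal components, at resolution 1. Ratios needed at least 50 cells with the receptor and 50 UMIs expected in them. The named genes are the 5 highest and 5 lowest ratios of each receptor and library, of which some are not reported here. Genes past the ratio of 1.5 under both thinnings and members of the gene lists are named as well. For the patterns over clusters, genes with at least 1000 UMIs were compared on log2(CPM + 1), and the 3 most alike are named. The counting was done with scipy 1.17.1, numpy 2.4.6 and pandas 2.3.3 under Python 3.11.15, plots with matplotlib 3.10.9, and the code was tested on simulated data. Gene positions are those of GENCODE M21 on GRCm38, and upstream sequences those of RefSeq on GRCm38.p6, where all 4 receptors were found by symbol. The windows hold 250 bases, or 234 for P2rx7, which was cut where the gene starts. The P2ry1 window ends at base 61002784, short of the gene's start at 61002795.

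The receptors and gene lists were chosen with earlier results of these data known. The splits by summed list UMIs, the bins of depth within them, the ratios without the cell highest in a gene, the ranges without adherent cluster 9 and the co-detection at full depth without bins were chosen after the data were seen.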

Additional observations from a re-analysis of the deposited data

Results flagged for a closer look

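The ratio of 3 named genes between the cells with and without a receptor lay on opposite sides of 1 in the adherent and neurosphere libraries, with intervals that did not include 1. Tex14 with P2rx7 was at 1.70 in adherent and 0.670 in neurosphere cells, and the adherent value was 0.711 without 1 cell. Kifc1 with P2rx4 was at 1.52 in adherent and 0.712 in neurosphere cells, and Ahnak with P2ry10 at 0.533 in neurosphere and 1.29 in adherent cells. These differences between the libraries were not tested.

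Barcodes that the filter on UMIs and genes removed held receptor UMIs too. In the 713 removed adherent barcodes, P2rx7 was at 35.7 CPM from 14 UMIs (19.5 to 59.9) and P2rx4 at 76.5 CPM from 30 UMIs (51.6 to 109), above the 12.5 and 28.9 CPM of the kept cells. In the 675 removed neurosphere barcodes, P2ry10 was at 66.1 CPM from 38 UMIs (46.8 to 90.8), above 44.7 CPM in the kept cells. The intervals of the other receptors in the removed barcodes included the level of the kept cells. The removed barcodes had medians of 301 and 106 UMIs without mitochondrial and ribosomal protein genes, and medians of 48.8% and 87.0% mitochondrial UMIs among all their UMIs.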

How the results depend on the processing

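With cells thinned to 3000 UMIs, P2rx7, P2rx4, P2ry1 and P2ry10 were detected in 3.56%, 8.50%, 0.325% and 4.45% of adherent cells and 2.81%, 10.5%, 6.55% and 14.1% of neurosphere cells. At 8000 UMIs, P2rx7, P2rx4 and P2ry10 were detected in 9.14%, 19.5% and 11.6% of adherent cells, and all 4 in 6.23%, 22.2%, 14.3% and 29.3% of neurosphere cells. With mitochondrial and ribosomal genes kept, the shares were 4.42%, 9.25% and 6.09% for P2rx7, P2rx4 and P2ry10 in adherent cells and 13.3%, 7.90% and 17.8% for P2rx4, P2ry1 and P2ry10 in neurosphere cells. These settings change the UMIs looked at and in part the cells used, and the parts of both were not separated. Of the co-detection ratios under other settings, 91 stayed within their interval and 5 did not. These were those at 3000 UMIs of P2rx7 with P2ry1 (0) and of P2ry1 and P2rx4 with P2ry10 (0 and 0.537) in adherent cells, of P2rx7 with P2ry1 in neurospheres (0.382), and of P2rx7 with P2ry10 in adherent cells under the other thinning (0.610). P2rx7 with P2rx4 had an interval above 1 at 8000 UMIs in adherent (1.37, 1.06 to 1.75) and neurosphere cells (1.32, 1.01 to 1.68), and was at 1.33 and 1.00 under the other thinning.

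The highest over the lowest adherent cluster was 1.68, 2.83 and 2.14 for P2rx7, P2rx4 and P2ry10 by thinned shares, and 2.17, 2.89 and 2.29 by CPM without cluster 9. For P2ry1 in neurospheres it was 2.37 at resolution 0.8 and 3.76 at resolution 1. No value could be had for adherent P2ry1, whose lowest cluster was at 0.

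The number of genes past the ratio depended on the filter and the thinning. For P2rx7, P2rx4 and P2ry10 in adherent cells it was 12, 17 and 13, then 0, 4 and 0 at a ratio of 2, 148, 181 and 117 with 20 UMIs expected, and 2, 4 and 0 with 100. For P2rx7, P2rx4, P2ry1 and P2ry10 in neurosphere cells it was 46, 64, 29 and 53, then 3, 1, 3 and 5 at a ratio of 2, 257, 239, 208 and 207 with 20 UMIs expected, 16, 23, 5 and 17 with 100, and 20, 22, 17 and 33 with the same cluster shares. At 3000 UMIs it was 2 for P2ry10 in adherent cells and 18, 18 and 27 for P2rx7, P2ry1 and P2ry10 in neurospheres. It was 8 for adherent P2ry10 without the cells highest in UMIs, and 35 for neurosphere P2ry10 under the other thinning. The cause was not tested, except that the filters test other genes.

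Of the ratios of named genes under other settings, 231 moved by less than their counting interval, 42 moved more and 7 turned. Those that turned were Tex14 with adherent P2rx7 without the highest cell (0.711), Mucl2 with neurosphere P2ry10 at 3000 UMIs (0.742), and under the other thinning Arhgap11a (1.02) with P2rx4 and Ccndbp1 (1.06) with P2ry10 in adherent cells and Trmt11 (1.08), Ndufs1 (1.05) and Gm45589 (1.06) with P2rx7 in neurospheres. No paired analysis was possible because each condition is 1 library and no result comes from a test. A run without the filter on UMIs expected was not made, since a ratio over 0 UMIs has no value. With 1 UMI in most cells with a receptor, a cell without one may still hold the RNA, and spread between cultures was not measured.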

Other observations

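Malat1, a nuclear RNA, was at 10314 CPM in the removed and 3010 CPM in the kept adherent barcodes, and at 5761 and 2783 CPM in the neurosphere ones. In adherent cluster 9, whose 49 cells had the highest adherent levels of P2rx7, P2rx4 and P2ry10, it was at 15738 CPM. No UMI of P2ry1 was found in that cluster, where so few UMIs allow a level of up to 27.1 CPM.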
